A study of Homo sapiens with 10 samples.

Results

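The genes that encode RNA polymerase II and the machinery around it are described here by the peaks at their own ends in HCT116, a cell line long established from a human colorectal carcinoma. Members were chosen by symbol: the POLR2A to POLR2L subunits, the TFIIA, TFIIB, TFIIE, TFIIF and TFIIH factors named GTF2, the Mediator subunits named MED with a number, and 11 genes for elongation factors and transcription kinases and cyclins. The rule found 68 genes, of which 67 had a position on a chromosome and were analysed, among 19821 protein-coding genes on chromosomes 1 to 22 and X. The gene left without a position is GTF2H2C_2, a near-identical copy of GTF2H2C.

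CUT&Tag, in which an antibody tethers a transposase (pAG-Tn5) that tags the DNA beside the bound protein, was carried out with 10 samples of cells labelled WT, for which no treatment is named. There were 3 samples for POLR1A, the catalytic subunit of polymerase I, 3 for POLR2A, its counterpart in polymerase II, 1 for H3K4me3, a histone mark of active promoters, and 3 for H3K9me3, a mark of heterochromatin. Replicates were made on separate days, each from a newly thawed aliquot, and 100000 to 200000 cells entered the assay. The study asked how both polymerases lie relative to each other and to the chromatin around them. The deposited data are 1 peak list per target, with 3812 POLR1A, 19997 POLR2A, 17181 H3K4me3 and 16414 H3K9me3 peaks on the chromosomes used. No value below therefore has a replicate error, no test over samples could be made, and read depth is unknown. Fold enrichment is the authors' own value for a peak, a linear ratio, and it serves here to rank peaks inside a single list. The cells were checked against marker genes: 8 of 8 epithelial genes had both POLR2A and H3K4me3 at an end. POLR2A was found at 41.3% and H3K4me3 at 54.6% of all protein-coding genes. KRT8 and KRT18 had the same H3K4me3 value, 12.8-fold, and may share that peak. Among 9 fibroblast and leukocyte genes, COL1A1 had an H3K4me3 peak of 8.87-fold and CD14 a POLR2A peak of 2.75-fold, and no other had either.

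RNA polymerase II transcribes protein-coding genes. At a promoter it is positioned by the general factors, of which TFIIH opens the DNA and carries the CDK7 kinase that phosphorylates the polymerase's tail. Mediator, built from head, middle and tail around the MED14 scaffold and joined reversibly by a kinase module, relays signals from activators to the polymerase. After initiation the polymerase pauses near the start with DSIF bound, and P-TEFb, made of CDK9 and a T-type cyclin, releases it. RNA polymerase I is known for transcribing the ribosomal RNA precursor.

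A gene was counted for a target where a peak lay within 1 kb of either of its ends, and the strongest such peak gave its value. H3K4me3 was found at 59 of 67 machinery genes, 88.1% with an exact 95% interval of 77.8 to 94.7, against 54.6% of all protein-coding genes. POLR2A was found at 44 of 67, 65.7% with an interval of 53.1 to 76.8, against 41.3% of all. POLR1A was found at 7 of 67, 10.4% with an interval of 4.30 to 20.3, against 11.2% of all. H3K9me3 was found at 1 of 67, 1.49% with an interval of 0.0378 to 8.04, against 2.70% of all. The machinery genes therefore stood above the background share in H3K4me3 and POLR2A, while their shares in POLR1A and H3K9me3 were near it. With each list limited to its 3812 strongest peaks, POLR2A was left at 20 of 67 against 17.3% of all genes, H3K4me3 at 31 of 67 against 17.8%, and H3K9me3 at 0 of 67 against 0.656%. Intervals cover counting error only, and neighbouring genes can share a peak.

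**Figure D1:**
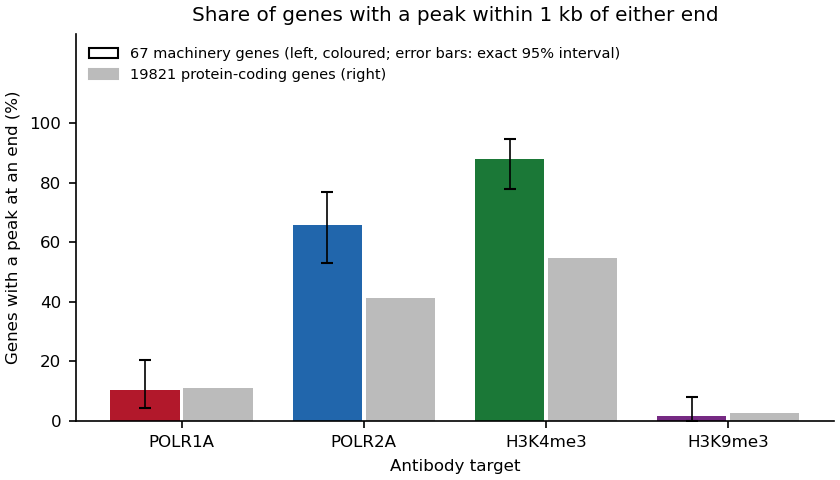
Share of genes with a peak of each target within 1 kb of either end, in percent, for the 67 machinery genes (coloured bars, with exact 95% intervals) beside all 19821 protein-coding genes (grey bars). The machinery genes reached 88.1% in H3K4me3 and 65.7% in POLR2A, against 54.6% and 41.3% of all genes, and 10.4% against 11.2% in POLR1A.

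Among genes that carried H3K4me3, the difference in POLR2A was small: 44 of 59 machinery genes with the mark had POLR2A, 74.6%, against 72.8% of all genes with the mark. All 44 machinery genes with POLR2A had H3K4me3, against 96.3% of all genes with POLR2A. Both stood at the same end in 42 of 67, against 39.2% of all genes. The exceptions were MED8, whose POLR2A and H3K4me3 peaks lay at opposite ends, and POLR2L. H3K4me3 without POLR2A was found at 15 of 67, against 14.9% of all genes, and POLR2A without H3K4me3 at 0 of 67, against 1.54% of all.

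The strength of the peaks was compared inside each list only. Median fold enrichment of H3K4me3 was 13.7 at the machinery genes and 11.05 at all genes with a peak. For POLR2A the medians were 9.25 and 8.87, and for POLR1A 5.76 and 6.08. The 95% interval of the machinery genes' median, 11.7 to 14.7, lay above the median of all genes for H3K4me3, while for POLR2A it ran from 7.93 to 12.1 and held it. H3K4me3 peaks were 1153 bp wide at the median, against 1091 bp at all genes.

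No peak of any target lay within 1 kb of 8 of 67 genes, against 42.8% of all genes. These were POLR2A itself, GTF2A1L, GTF2H1, GTF2H2, GTF2H4, MED10, MED18 and MED22. GTF2A1L encodes a form of TFIIA known from germ cells. In the lists used here the nearest peak of any target lay 9.95 kb away from GTF2A1L, 16.1 kb from MED18, 23.3 kb from POLR2A and 821 kb from GTF2H4. That distance was 99.0 kb at MED22, 101.1 kb at GTF2H1, 209 kb at GTF2H2 and 219 kb at MED10. Whether the lists used here are complete over these stretches is not known, so nothing is read from the missing peaks, and all 8 genes stay in every share given. GTF2H2 and GTF2H2C are near-identical copies, so the assignment of peaks between them is uncertain.

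**Figure D2:**
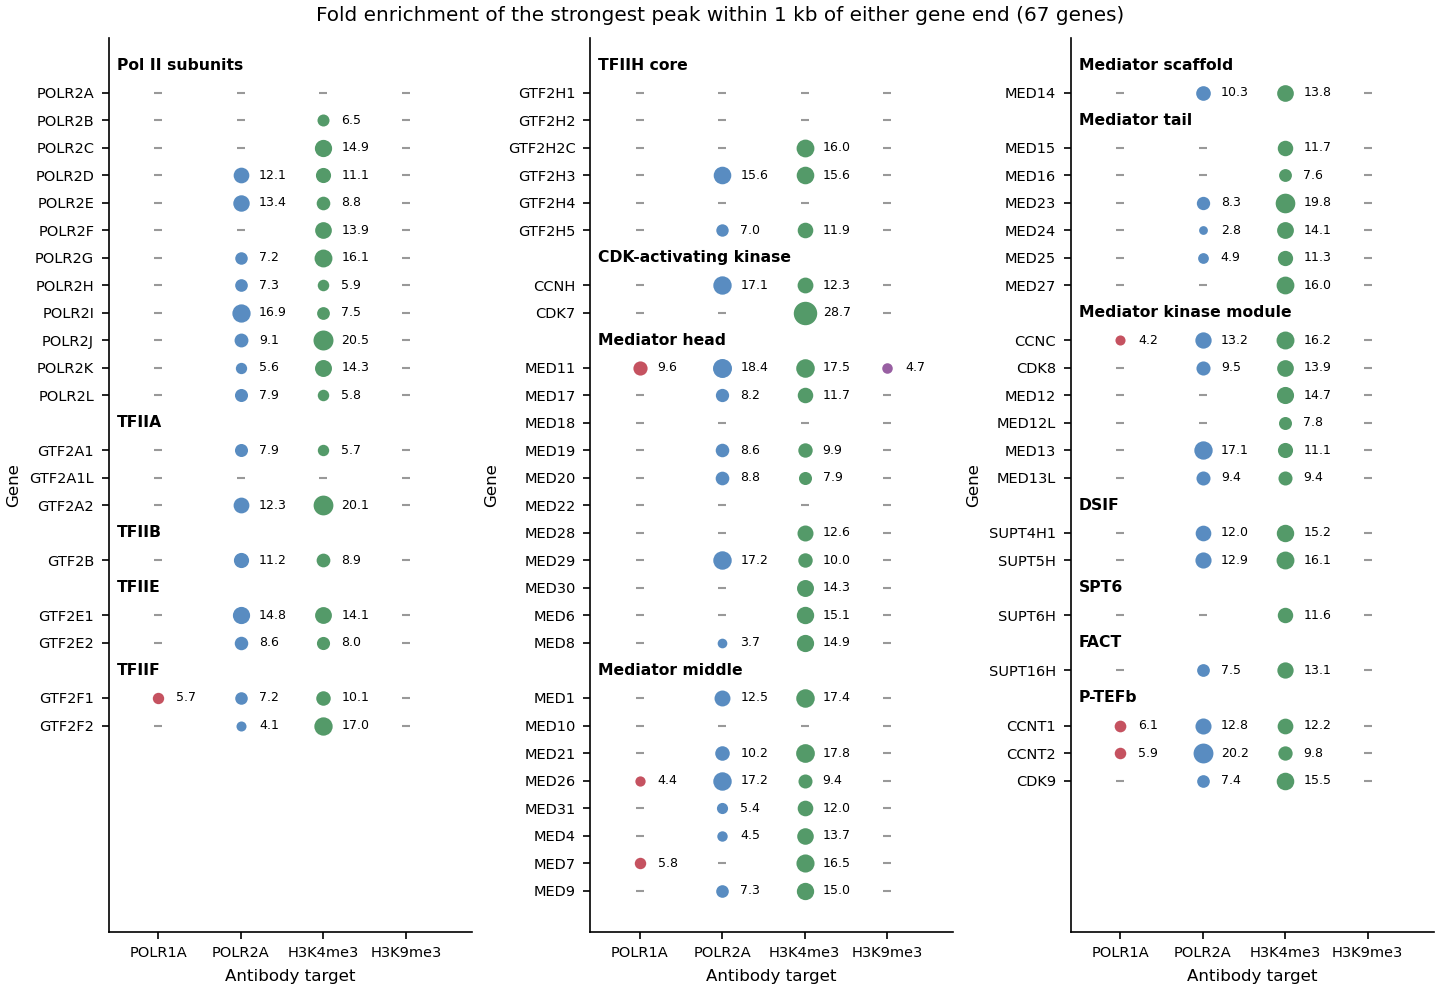
Fold enrichment of the strongest peak of each target within 1 kb of either end of each of the 67 machinery genes, by complex. A circle marks a peak, its area grows with the fold enrichment printed beside it, and a dash marks no peak in the list. POLR1A appears at 7 genes and H3K9me3 at MED11.

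Of the 12 polymerase II subunit genes, 11 had H3K4me3, 8 had POLR2A and none had POLR1A. The shares of all protein-coding genes were 54.6%, 41.3% and 11.2%, and 12 genes are too few to tell 0 from the last. POLR2I, whose product takes part in transcript cleavage, had the strongest POLR2A peak of the subunits, 16.9-fold, with 7.52-fold H3K4me3. The POLR2A summit there lay 397 bp from an end of TBCB and 489 bp from that of POLR2I. POLR2E, a subunit shared with polymerases I and III, followed with 13.4-fold, and POLR2D, of the stalk, with 12.1-fold. POLR2J had the highest H3K4me3 of the subunits, 20.5-fold, followed by POLR2G at 16.1 and POLR2C at 14.9. POLR2J has near-identical copies, of which POLR2J3 held 4.71-fold POLR1A, 10.9-fold POLR2A and 25.4-fold H3K4me3 and POLR2J2 no peak, so reads may be split among them. H3K4me3 without POLR2A was seen at POLR2B, the second-largest subunit, at POLR2C and at POLR2F, with 6.49-, 14.9- and 13.9-fold. At POLR2B the mark's summit lay 30 bp from an end of NOA1 and 1260 bp from its own.

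Of 16 genes for general factors and the CDK-activating kinase, 12 had H3K4me3, 10 had POLR2A and 1 had POLR1A. The shares of all genes were 54.6%, 41.3% and 11.2%. In TFIIA, which steadies TBP on DNA, GTF2A2 had 12.3-fold POLR2A and 20.1-fold H3K4me3, and GTF2A1 7.89 and 5.69. GTF2B, which links TBP to the polymerase, had 11.2-fold POLR2A and 8.94-fold H3K4me3. Of the TFIIE genes, whose products recruit TFIIH, GTF2E1 had 14.8-fold POLR2A and 14.1-fold H3K4me3, and GTF2E2 8.58 and 8.04. TFIIF, which binds the polymerase before it reaches the promoter, was split in another way: GTF2F2 had 4.10-fold POLR2A beside 17.0-fold H3K4me3, and GTF2F1 had 7.21 and 10.1. In the TFIIH core, GTF2H3 had the strongest POLR2A peak, 15.6-fold, with 15.6-fold H3K4me3, and GTF2H5 had 7.02 and 11.9. GTF2H2C had the highest H3K4me3 of the core, 16.0-fold, without POLR2A.

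The kinase pair of TFIIH both carried the mark and differed in POLR2A. CDK7 had the highest H3K4me3 of all machinery genes, 28.7-fold, which ranked 15 among 10832 genes with the mark, and it had no POLR2A peak. CCNH, its cyclin, had 17.1-fold POLR2A and 12.3-fold H3K4me3.

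Of 32 Mediator genes, 29 had H3K4me3, 20 had POLR2A and 4 had POLR1A, against 54.6%, 41.3% and 11.2% of all genes. The POLR1A count was thus near the share of all genes. In the head, which contacts the polymerase, 6 of 11 had POLR2A, against 41.3% of all genes. MED11 with 18.4-fold, MED29 with 17.2-fold and MED20 with 8.81-fold were the highest. The MED29 peak lay 106 bp from an end of PAF1, which shares it. MED11, MED6 and MED8 had the highest H3K4me3 of the head, 17.5-, 15.1- and 14.9-fold, and MED6, MED28 and MED30 had the mark without POLR2A.

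In the middle, 6 of 8 genes had POLR2A, against 41.3% of all genes. MED26, whose product recruits elongation factors, had 17.2-fold, MED1, the subunit bound by nuclear receptors, 12.5-fold, and MED21 10.2-fold. MED21 also had the highest H3K4me3 of the middle, 17.8-fold, then MED1 with 17.4 and MED7 with 16.5. MED14 had 10.3-fold POLR2A and 13.8-fold H3K4me3.

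The tail binds activators, and it was taken here as MED15, MED16, MED23, MED24, MED25 and MED27. Other assignments of subunits to the parts of Mediator were not tried. All 6 tail genes had H3K4me3, against 54.6% of all genes, up to 19.8-fold at MED23, 16.0-fold at MED27 and 14.1-fold at MED24. POLR2A was found at 3 of 6, against 41.3% of all genes, with 8.32-fold at MED23, 4.92 at MED25 and 2.80 at MED24, where the last value lies in the lowest 1.57% of genes with a POLR2A peak. MED15, MED16 and MED27 had no POLR2A peak at their ends.

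The kinase module held 2 pairs of paralogs. MED13, which links the module to the rest of Mediator, had 17.1-fold POLR2A and 11.1-fold H3K4me3, and MED13L had 9.38 and 9.39. MED12, the activator of CDK8, had 14.7-fold H3K4me3 and MED12L 7.83, both without POLR2A. CCNC, the cyclin of the module, had 13.2-fold POLR2A and 16.2-fold H3K4me3, and CDK8 had 9.48 and 13.9.

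Of 7 elongation genes, all had H3K4me3, 6 had POLR2A and 2 had POLR1A, against 54.6%, 41.3% and 11.2% of all genes. CCNT2, a T-type cyclin of P-TEFb, had the strongest POLR2A peak of all machinery genes, 20.2-fold, ranked 210 among 8192 genes with POLR2A. CCNT1 had 12.8-fold POLR2A, and CDK9 7.39-fold with 15.5-fold H3K4me3. SUPT5H and SUPT4H1, the subunits of DSIF, had 12.87- and 12.03-fold POLR2A and 16.1- and 15.2-fold H3K4me3. The POLR2A summit at SUPT4H1 lay 130 bp from an end of RNF43 and 169 bp from that of SUPT4H1. SUPT16H, the large subunit of the histone chaperone FACT, had 7.48 and 13.1. SUPT6H, another histone chaperone that travels with the polymerase, had 11.6-fold H3K4me3 without POLR2A.

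**Figure D3:**
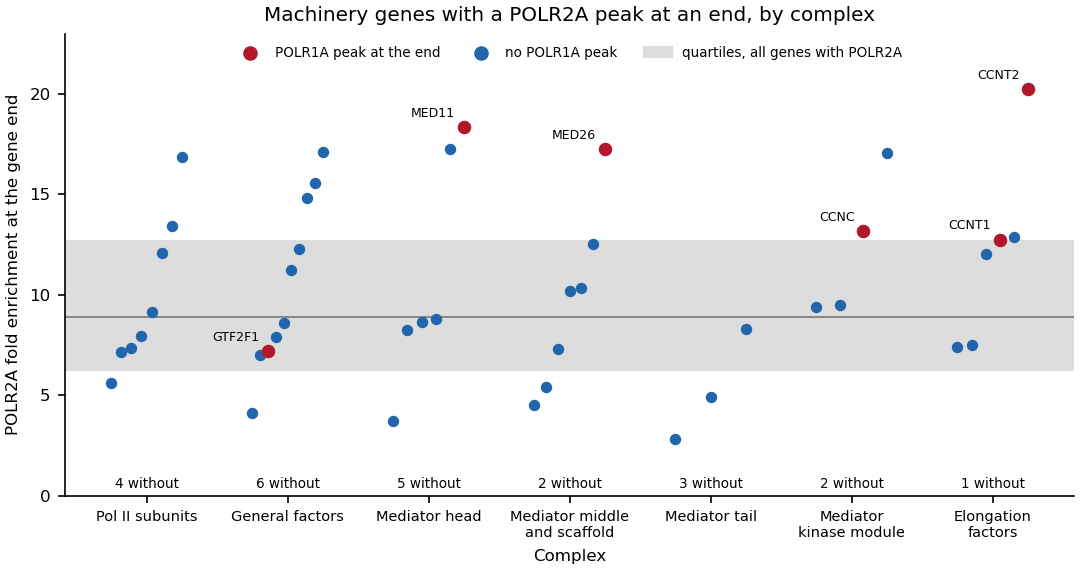
Fold enrichment of the strongest POLR2A peak at each of the 44 machinery genes that have one, by complex. The 3 genes shown that were assigned here to the Mediator tail lie between 2.80 and 8.32, and CCNT2 of P-TEFb stands highest at 20.2.

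POLR1A was found at 7 machinery genes. MED11 had the strongest POLR1A peak, 9.63-fold, ranked 150 among 2213 genes with POLR1A. CCNT1 had 6.09-fold, CCNT2 5.86-fold, MED7 5.76-fold, GTF2F1 5.67-fold, MED26 4.37-fold and CCNC 4.18-fold. MED11 stood apart from the other 6, and both T-type cyclins of P-TEFb carried POLR1A while CDK9 did not. Both polymerases stood at the same end of 6 of 67 machinery genes, against 10.7% of all genes. MED7 was the exception, 1 of 67 with POLR1A and no POLR2A, against 0.439% of all genes. With a −log10 q of at least 5, POLR1A was left at MED11, 1 of 67 against 5.36% of all genes.

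The share with POLR1A was also read among genes that had POLR2A. Of 44 machinery genes with POLR2A, 6 had POLR1A, 13.6% with an exact interval of 5.17 to 27.4, against 26.0% of all genes with POLR2A, a value inside that interval. Among genes with H3K4me3 the count was 7 of 59, 11.9% with an interval of 4.91 to 22.9, which holds the 20.1% of all. All genes with POLR2A were then split by its fold enrichment into 3 classes of equal size. In the highest class 5 of 18 machinery genes had POLR1A, against 50.5% of all genes, in the middle class 1 of 18 against 20.0%, and in the lowest class 0 of 8 against 7.29%. No interval was calculated for any of the 3 classes, and in the lowest 8 genes are too few to tell 0 from the background share. These differences were not tested.

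The upstream sequences are given for the 5 genes whose POLR1A peak covers part of the 250 bases before the RefSeq start (GRCh38.p14), since these are the bases on which both polymerases were found or, at MED7, POLR1A alone. Each sequence reads 5′ to 3′ toward the gene, and capitals mark matches on either strand to 8 motifs. These were the TATA box, searched as TATAAA, the CCAAT box, the GC box to which SP1 binds, searched as GGGCGG, and the ETS core, searched as CCGGAAG. The others were the YY1 motif, searched as AAGATGGCG, the CRE, searched as TGACGTCA, the E box, searched as CACGTG, and the NRF1 motif, in which GCGCA is followed by any base and then by GCGC.
CCNT1: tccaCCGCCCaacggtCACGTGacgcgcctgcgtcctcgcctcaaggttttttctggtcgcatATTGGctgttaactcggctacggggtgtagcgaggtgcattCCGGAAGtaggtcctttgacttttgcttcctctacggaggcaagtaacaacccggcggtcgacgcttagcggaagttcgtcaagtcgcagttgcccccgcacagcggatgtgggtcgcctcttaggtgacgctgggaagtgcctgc
CCNT2: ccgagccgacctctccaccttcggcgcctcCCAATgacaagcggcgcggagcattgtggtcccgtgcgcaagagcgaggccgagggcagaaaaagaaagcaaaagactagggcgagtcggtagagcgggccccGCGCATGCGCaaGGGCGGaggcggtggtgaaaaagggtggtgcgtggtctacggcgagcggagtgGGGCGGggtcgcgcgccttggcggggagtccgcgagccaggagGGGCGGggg
MED26: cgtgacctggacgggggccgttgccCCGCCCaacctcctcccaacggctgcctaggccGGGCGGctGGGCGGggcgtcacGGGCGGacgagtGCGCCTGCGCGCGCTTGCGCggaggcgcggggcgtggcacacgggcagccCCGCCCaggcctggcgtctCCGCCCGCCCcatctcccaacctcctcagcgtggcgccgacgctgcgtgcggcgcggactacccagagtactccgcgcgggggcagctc
MED7: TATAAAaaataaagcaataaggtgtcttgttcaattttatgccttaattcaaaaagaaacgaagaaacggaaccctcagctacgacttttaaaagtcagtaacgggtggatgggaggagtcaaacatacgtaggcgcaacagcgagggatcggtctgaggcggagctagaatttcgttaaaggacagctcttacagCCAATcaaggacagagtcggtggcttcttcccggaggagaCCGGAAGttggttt
MED11: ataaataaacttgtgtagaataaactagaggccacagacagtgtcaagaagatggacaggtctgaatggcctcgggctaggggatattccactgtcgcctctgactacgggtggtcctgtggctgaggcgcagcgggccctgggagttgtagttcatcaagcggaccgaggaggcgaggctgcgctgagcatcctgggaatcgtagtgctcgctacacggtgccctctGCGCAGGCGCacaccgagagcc

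The CCNT1 window is chr12:48716708-48716957 on the minus strand and lies wholly under the POLR1A peak at chr12:48716679-48716964 and the POLR2A peak at chr12:48716509-48717167. Its capitals are, in order, a GC box, an E box, a CCAAT box and an ETS match. The POLR1A summit lay 37 bp and the POLR2A summit 211 bp upstream of the start, with the H3K4me3 summit 35 bp downstream. The CCNT2 window, chr2:134918572-134918821 on the plus strand, had 220 of its 250 bases under POLR1A, with the summits of POLR1A and POLR2A 200 and 145 bp upstream. It holds a CCAAT box, an NRF1 match and 3 GC boxes, and no ETS match, so the promoters of the paralogs share the CCAAT and GC boxes.

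The MED26 window, chr19:16628205-16628454 on the minus strand, had 198 bases under POLR1A and 233 under POLR2A, with summits 85 and 69 bp upstream. It holds GC boxes on both strands, of which a pair overlap, and NRF1 matches. The strongest H3K4me3 peak of MED26, 9.37-fold, had its summit 717 bp downstream, and a second of 6.396-fold covered the window. The MED7 window, chr5:157142866-157143115 on the minus strand, had 98 bases under POLR1A, with the summit 45 bp upstream, and holds TATAAA at its far end, CCAAT and ETS matches. At MED11, chr17:4731178-4731427 on the plus strand, 74 bases lay under POLR1A, whose summit was 16 bp upstream, and the NRF1 match stands 13 to 22 bases before the start.

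MED11 was the only machinery gene with a peak of each of the 4 targets. The share of all genes with all 4 was not counted. H3K9me3 and POLR1A stood at the same end in 196 of all protein-coding genes, where 535 had H3K9me3. Its H3K9me3 peak, 4.67-fold with a −log10 q of 2.94, lay at chr17:4731390-4731717 with a summit 30 bp downstream of the start, inside the POLR1A peak at chr17:4731354-4731747. The POLR2A and H3K4me3 summits stood further in, 266 and 230 bp downstream. No H3K9me3 peak at a machinery gene was left once a −log10 q of 5 or more was required, against 0.590% of all genes. CCNC and GTF2F1 had POLR1A outside the 250 bases: 195 bp downstream of the start at CCNC and 617 bp upstream at GTF2F1.

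POLR2A stood just outside the gene end and H3K4me3 just inside. The median POLR2A summit lay 68 bp outside the end at machinery genes and 78 bp outside at all genes, and 31 of 44 summits were outside, 70.5% against 70.4% of all. The median H3K4me3 summit lay 89 bp inside at machinery genes and 188 bp inside at all genes. In 19 of 59 machinery genes, 32.2%, it fell in the first 100 bp inside the end, against 12.7% of all genes with the mark. This stretch was picked after the values were seen. In the next 100 bp inward the shares ran the other way, 5.08% against 9.86%. Where both stood at 1 end, the strongest peak of each was compared. POLR2A was further out in 37 of 42 machinery genes, 88.1% against 70.1% of all. Over all such pairs, with those in which POLR2A was further in counted as negative, the median difference was 133 bp against 131 bp. The strongest POLR2A peak overlapped the strongest H3K4me3 peak in 39 of 42, against 89.3% of all. MED26 was counted as without overlap, although its second H3K4me3 peak holds the POLR2A peak. Where POLR1A and POLR2A shared an end, their strongest peaks overlapped in 6 of 6, against 97.4% at all genes. The median distance between these summits was 168.5 bp, against 65 bp.

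**Figure D4:**
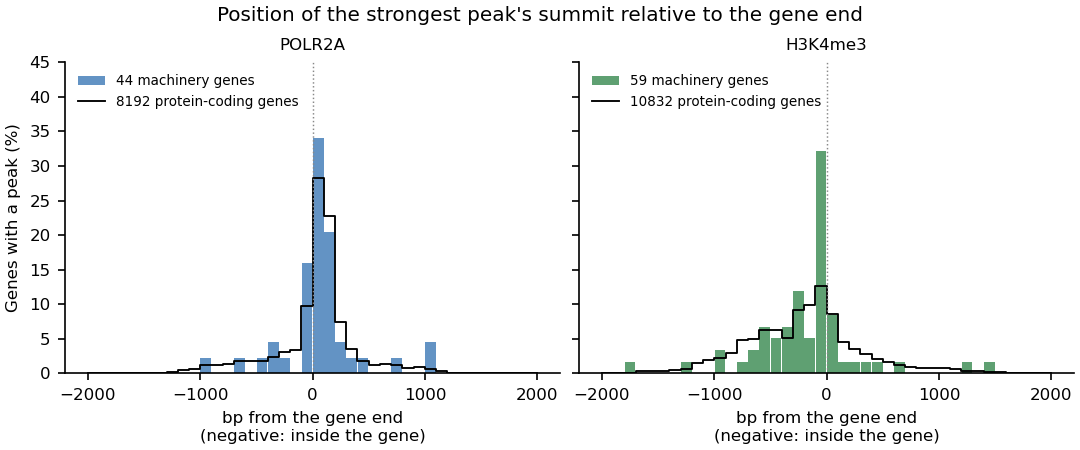
Position of the summit of the strongest peak relative to the gene end in bp, negative inside the gene, in bins of 100 bp, for POLR2A at 44 machinery genes and H3K4me3 at 59 (bars), with all protein-coding genes with a peak as a line. In the 100 bp inside the end, a bin picked after the values were seen, lay 32.2% of the machinery genes' H3K4me3 summits against 12.7% of all. In the next bin inward it was 5.08% against 9.86%.

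Strand was known for 54 of the 67 genes from the RefSeq promoter entries. The end with the peak was the 5′ end in 7 of 7 for POLR1A, against 94.7% of all genes, in 34 of 35 for POLR2A, against 95.3%, and in 47 of 47 for H3K4me3, against 97.9%. The exception was POLR2L, a subunit shared with the other polymerases, whose 7.93-fold POLR2A peak lay 1004 bp beyond its 3′ end and 114 bp from an end of CD151. Ends within 1 kb of another protein-coding gene accounted for 11 of 44 machinery genes with POLR2A, against 31.0% of all, and for 14 of 59 with H3K4me3, against 28.3%. For POLR1A it was 0 of 7, against 39.4% of all. Shared ends included GTF2H3 with EIF2B1, GTF2H5 with SERAC1, GTF2E1 with RABL3, POLR2K with FBXO43, MED31 with C17orf100 and SUPT6H with SDF2. Further pairs were SUPT4H1 with RNF43, POLR2F with C22orf23 and MED19 with TMX2. In these pairs a peak cannot be given to 1 gene.

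Inside the genes, more than 1 kb from both ends, POLR2A peaks were found in 18 of 67 machinery genes, against 23.5% of all genes. GTF2F2 held 4 of the 27 peaks, the strongest 12.1-fold and 3608 bp from its right-hand end, above the 4.10-fold peak at its end. None of the 4 overlapped H3K4me3. H3K4me3 inside the gene was found in 5 of 67, against 14.6% of all. In GTF2A1 an inner H3K4me3 peak of 13.03-fold and a POLR2A peak of 7.94-fold lay 1882 and 1977 bp inside the right-hand end, and the mark was stronger there than at the end itself. MED16, which lacked POLR2A at its ends, held 3 inner POLR2A peaks of up to 9.39-fold. POLR1A inside the gene was found in MED16, 4.25-fold, and MED12L, 3.40-fold, 2 of 67 against 4.72% of all. H3K9me3 was found inside CCNH, 5.46-fold, GTF2H5, 3.98-fold, and GTF2F2, up to 6.31-fold, 3 of 67 against 12.3% of all.

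RefSeq promoters of 300 bases, from 250 before to 50 after the start, were matched for 54 of the 67 genes. No entry was matched for POLR2G, POLR2I, POLR2J, POLR2K, GTF2E2, MED6, MED8, MED13, MED14, MED21, MED22, MED28 and MED30. CCGGAAG, the core of ETS factor sites, was in 21 of 54, against 14.1% of all 15812 promoters. Among genes with H3K4me3 it was in 38.3% of 47 machinery genes, against 20.7% of 8951. The NRF1 motif was in 13 of 54, against 8.60% of all, and in 23.4% against 12.9% with H3K4me3. AAGATGGCG, known for YY1, was in 6 of 54, against 2.69%, and in 10.6% against 4.42% with H3K4me3. These 3 were more frequent in the machinery genes in both comparisons, as was CACGTG, given below. The differences were not tested, and that for YY1 rests on 6 promoters.

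CCAAT was less frequent, in 14 of 54 against 36.4% of all and in 27.7% against 37.0% with H3K4me3. The direction for the GC box depended on the genes compared: it was in 33 of 54, 61.1% against 58.3% of all, and in 61.7% against 73.1% with H3K4me3. TATAAA turned as well, at 3 of 54 against 9.75% of all and 6.38% against 5.02% with H3K4me3. CACGTG was in 8 of 54 against 8.82% of all, and in 14.9% against 10.5% with H3K4me3. TGACGTCA was in 1 of 54 against 2.56% of all, and in 0 of 47 against 3.28% with H3K4me3. The GC content of promoters with H3K4me3 was 59.3% at the median in the machinery genes and 66.0% in all genes, and its part in the motif shares was not tested. None of these 8 motifs holds the letters of another. A match describes the letters in the window and was not tested as a bound site.

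**Figure D5:**
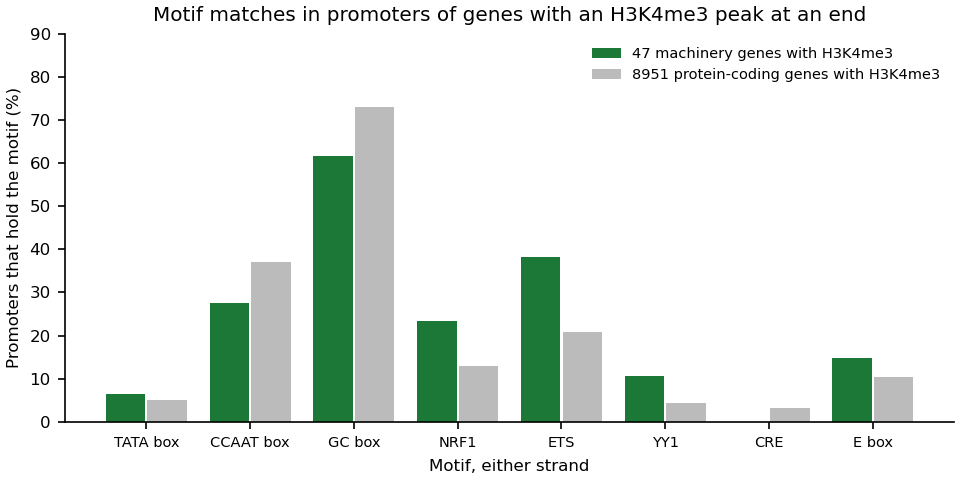
Share of promoters of 300 bases that hold each motif on either strand, in percent, for 47 machinery genes with H3K4me3 (coloured) and 8951 protein-coding genes with H3K4me3 (grey). ETS stands at 38.3% against 20.7% and the GC box at 61.7% against 73.1%.

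Genes of the same pathway outside the rule were counted in 8 lists of 46 genes in all. H3K4me3 was found at 43 of 46, against 54.6% of all protein-coding genes, POLR2A at 37 of 46 against 41.3%, POLR1A at 9 of 46 against 11.2%, and H3K9me3 at 2 of 46 against 2.70%. Of the 9 genes with POLR1A, 6 were among the 12 for P-TEFb regulators and the super elongation complex, where 9 had POLR2A. The share was 11.2% of all genes and 26.0% of all genes with POLR2A, and the difference between lists was not tested. ELL, an elongation factor of that complex, had 12.2-fold POLR1A, 20.2-fold POLR2A, 6.86-fold H3K4me3 and 8.47-fold H3K9me3, so it carried peaks of each target as MED11 did. ELL2 had 6.30-fold POLR1A, LARP7, which binds the 7SK RNA that holds P-TEFb inactive, 5.91, AFF1 5.88, ELL3 5.03 and MEPCE 4.55.

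TFIID, which holds TBP and recognises the core promoter, had POLR2A at 12 of 14 genes, against 41.3% of all genes. POLR1A was at 1 of 14, against 11.2% of all: TBP, with 7.37-fold POLR1A and 16.0-fold POLR2A. TAF7 had 3.33-fold H3K9me3 with 13.3-fold H3K4me3 and no POLR2A. A pair of kinases related to members carried POLR1A: CDK19, the paralog of CDK8, with 7.79-fold and CDK13 with 5.75-fold, and their POLR2A was 17.6- and 17.1-fold. The 6 genes of the PAF1 complex, which travels with the elongating polymerase, all had POLR2A and H3K4me3, against 41.3% and 54.6% of all genes. PAF1 was counted through peaks that it shares with MED29. POLR1A was at none of these 6, nor at the 4 NELF, 3 further TFIIH and 2 TFIIS genes or SSRP1. These lists are too short to tell 0 from the 11.2% of all genes. NELFE and TCEA2 had no peak of any target, and whether the lists used here are complete there is not known. The highest POLR2A of these lists was 17.2-fold at PAF1, 9.16 at SSRP1, 7.65 at NELFA, 5.77 at ERCC2 and 11.2 at TCEA1.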

How the data were processed

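CUT&Tag of POLR1A, POLR2A, H3K4me3 and H3K9me3 in HCT116 cells was deposited as 1 peak list per target in the format of MACS2. Each peak carries a fold enrichment, deposited by the authors as a linear ratio, with the authors' −log10 q-value, a score derived from it and the summit's offset. The 4 columns of −log10 p-values, 1 per list, were not used. How the caller was set, which control it had, how replicates entered and how repeated sequence was treated, which bears on near-identical copies, is not given in the sources used here. Per the submitters' processing notes, which name with no role stated STAR, DESeq2 1.44.0, HTSeq 2.0.2, RSEM 1.3.3, deepTools 3.1.1, SAMtools 1.6 and FastQC 0.12.0, the build was hg38 (GRCh38). Depth per sample is unknown.

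Gene positions came from RefSeq (GRCh38.p14), which lists 20056 protein-coding genes, and 235 not placed on chromosomes 1 to 22 and X were left out. Peaks were assigned to a gene where they reached within 1 kb of either end, the strongest counting. Shares carry exact Clopper-Pearson 95% intervals and medians order-statistic intervals, both for counting error only. The assignment was tested on simulated peaks. Python 3.11.15, pandas 2.3.3, NumPy 2.4.6, SciPy 1.17.1 and matplotlib 3.10.9 were used. No test between groups was made. Named genes were those with POLR1A or H3K9me3 at an end, the 3 highest in POLR2A and in H3K4me3 per complex and over all members, those lacking either, and paralog pairs, and in related lists those with POLR1A or H3K9me3 and the highest in POLR2A. Other genes named, such as those with peaks inside or at shared ends, were chosen after their values were seen. The members, lists and motifs were chosen with earlier results of these data known. Alternatives changed the window, the threshold, the list length, the end, the overlap and the reading of the rule.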

Additional observations from a re-analysis of the deposited data

How the results depend on the processing

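The counts of machinery genes with each target and the medians of fold enrichment stayed within 1.5 times, or within the interval of the value, for windows of 500 bp and 2 kb, for summits in place of whole peaks, for the 5′ end alone, without the GTF2H2 copies, with the other POLR2 symbols added, and with peaks limited to those nearest to the gene's own end, which was chosen after seeing the data. With each list limited to 3812 peaks by fold enrichment, POLR2A was left at 20 genes (17.3% of all genes), H3K4me3 at 31 (17.8%), H3K9me3 at 0 (0.656%) and POLR2A with H3K4me3 at 10, and the medians were 13.3 for POLR2A and 15.5 for H3K4me3. By construction this keeps fewer and stronger peaks. With a −log10 q of at least 5, POLR1A was left at 1 gene (5.36% of all genes), POLR1A with POLR2A at 1 and H3K9me3 at 0 (0.590%). The share of all genes with peaks of both targets was not calculated under either limit, so those joint counts have no background. Where both peaks had to cover 50% of each other, POLR1A with POLR2A was left at 3 genes and POLR2A with H3K4me3 at 3. H3K4me3 peaks are the wider ones. With only the strongest peak of each target per end, POLR1A with POLR2A met this at 3 of 6 genes, against 1493 of 2114 of all. POLR2A with H3K4me3 did so at 2 of 42, against 1030 of 7771. No paired analysis was possible because each target has 1 list that names no replicate, and for the same reason no replicate could be left out.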
